A study of Bos taurus with 8 samples.

Results

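Integrins are cell surface receptors for the extracellular matrix, each built from 1 alpha and 1 beta subunit. Those considered here are the 10 subunits ITGA2, ITGA3, ITGA5, ITGA6, ITGAV, ITGB1, ITGB3, ITGB4, ITGB5 and ITGB6. They were taken as every array probe whose symbol in the platform annotation was one of these names. All 10 were on the array, each with 1 probe, out of 15229 genes with a symbol and 43795 probes.

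The subunits pair in fixed combinations. ITGB1 joins many alpha subunits, among them ITGA2, a collagen receptor, ITGA3, a laminin receptor, and ITGA5, the fibronectin receptor. ITGAV pairs with ITGB3, ITGB5 or ITGB6 to bind vitronectin, osteopontin and other ligands that carry the RGD motif. ITGA6 joins ITGB1, or ITGB4 in hemidesmosomes, to bind laminin. In the embryo these receptors are known for anchoring trophectoderm, the outer epithelium of the blastocyst, to its basement membrane and for later contact with the uterus.

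Bovine blastocysts produced in vitro were compared with blastocysts recovered from the uterus. The in vivo embryos came from Holstein heifers or cows given follicle ablation (follicles over 8 mm), then 8 FSH injections that fell from 60 to 20 mg (400 mg in all) and 500 µg of a prostaglandin F2α analogue with each of the last doses. These animals were inseminated 12 and 24 h after oestrus, their uteri were flushed at day 7.5, and the embryos are labelled as collected at day 7. The in vitro embryos were matured, fertilised and cultured outside the animal and collected at 168 h after fertilisation. The labels name ovum pick-up as their source, while the protocol text describes cumulus-oocyte complexes from 2 to 6 mm follicles of slaughterhouse ovaries. Both kinds of embryo shared pooled semen, so the oocyte source, the culture and the hormone treatment of the donors differed together and cannot be told apart. The number of embryos in each RNA is not stated in the labels.

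There were 4 replicates of each kind, and replicates with the same number were hybridised together on 2 arrays with the dyes exchanged, giving 8 arrays. All 4 arrays with in vitro RNA in Cy5 are labelled as slide 58 and all 4 with in vivo RNA in Cy5 as slide 61, so the slides and the dye orientations divide the arrays in the same way. Nothing in the labels says whether replicates came from separate collections, and the p-values measure the spread between these 4 pairs. Replicate 2 stood apart from the others over all probes: its ratios correlated with theirs at r = 0.386 to 0.459 across probes, against 0.804 to 0.822 among replicates 1, 3 and 4. Median spot readings were 87.3 to 187 in Cy5 and 110 to 267 in Cy3. RNA was amplified before labelling, and the number of arrays limits the precision of every value. Of trophectoderm markers, KRT8, KRT18, GATA3 and TFAP2C were detected on all 8 arrays in both kinds of embryo, and so were the inner cell mass markers NANOG, POU5F1 and SOX2. Others were not: CDX2 was detected on 6 arrays in vitro and 8 in vivo and TEAD4 on 8 and 6. The inner cell mass markers KLF17 and SALL4 were detected on 7 and 7 and on 2 and 5. Of 13 leucocyte and platelet markers on the array, CD79A, LCP1 and ITGAM were detected on no array, PTPRC, CD3E and CD8A on all 8 in both kinds, and the other 7 on some.

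The integrin probes read close to the detection limit. A spot counted as detected when it was brighter, in its own channel and array, than 95% of the 153 negative control spots. ITGA6, ITGB3, ITGB5 and ITGB6 were detected in all 16 channel readings, and ITGB4 was detected on 7 arrays in vitro and 8 in vivo. These 5 subunits entered the test, which required detection on all 8 arrays in at least 1 kind of embryo. ITGB4 therefore passed through its in vivo readings only. The other 5 subunits did not enter it. ITGA2 was detected on 5 arrays in each kind, ITGA3 on 7 in vitro and 5 in vivo, and ITGA5 on 5 in vitro and 7 in vivo. ITGAV, the shared partner of ITGB3, ITGB5 and ITGB6, was detected on 3 arrays in vitro and 4 in vivo. ITGB1 was detected on 3 arrays in each kind.

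As a multiple of its own detection limit, the ITGA6 reading had a median of 2.25 in vitro (1.38 to 2.72) and 1.98 in vivo (1.70 to 2.35) over 8 arrays. The ITGB5 reading had a median of 1.34 in vitro (1.11 to 1.83) and 1.71 in vivo (1.20 to 2.27). These multiples are raw readings, and both ranges overlapped between the kinds of embryo. Medians were 1.52 and 1.34 for ITGB3, 1.19 and 1.16 for ITGB4, and 1.47 and 1.44 for ITGB6, in vitro first. The ITGB6 reading ranged from 1.26 to 3.15 in vitro and from 1.21 to 2.79 in vivo. The ITGB1 reading had a median of 0.95 in both kinds, below the limit, and ITGAV had medians of 0.99 and 0.98. At such readings a small difference in ITGB1 or ITGAV was not detectable on these arrays.

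**Figure D1:**
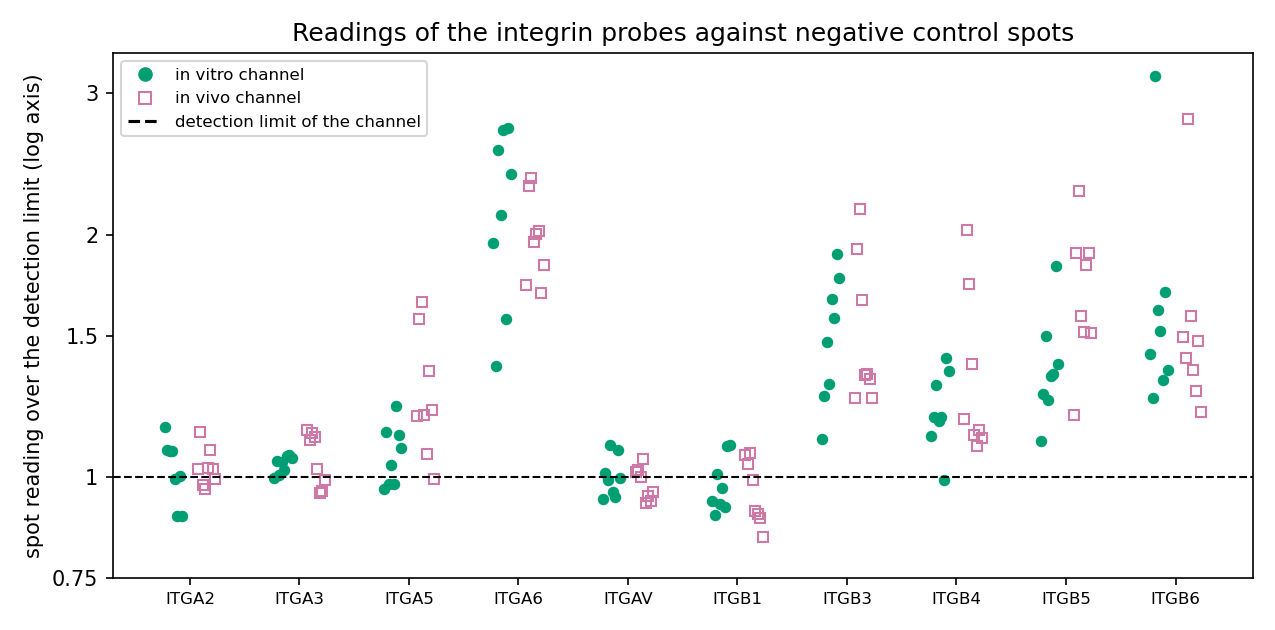
Spot readings of the 10 integrin probes divided by the detection limit of the same channel (log axis), 8 arrays for in vitro RNA (filled circles) and 8 for in vivo RNA (open squares); the dashed line marks the limit. ITGA6, ITGB3, ITGB5 and ITGB6 lie above the line on every array, while ITGAV and ITGB1 lie on both sides of it.

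Of the 5 tested subunits, ITGB5 fell in the in vitro embryos and none rose. Over the whole array 2225 of 10188 genes passed the same test (limma on the 4 replicate means, Benjamini-Hochberg adjusted p under 0.05), which is 21.8%, with 9.23% higher and 12.6% lower in vitro. A count of 1 in 5 is 20.0% and lies near that background. Ratios below are log2 of in vitro over in vivo, the 2 dye orientations of each replicate averaged, ± SE with n = 4. The median over all tested genes was -0.01 and the median size without regard to sign was 0.19, and 4 of the 5 tested integrin ratios were smaller than that. In these whole embryos, fewer cells of a type and less RNA per cell cannot be told apart.

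ITGB5, which pairs only with ITGAV and makes a vitronectin receptor, had a log2 ratio of -0.18, -0.23, -0.40 and -0.31 in replicates 1 to 4. All 4 replicates were lower in vitro, and so were 7 of 8 arrays; the exception was the replicate 1 array with in vitro RNA in Cy5, at 0.03. The mean was -0.28 ± 0.06 (95% confidence interval -0.44 to -0.12, limma adjusted p = 0.0367), a level 1.22-fold higher in vivo. On the log2 intensity scale the in vitro levels were 7.12, 7.33, 7.31 and 7.23 and the in vivo levels 7.30, 7.56, 7.71 and 7.54. The ranges overlapped between the groups, because replicate 1 was the lowest of both kinds, but in each pair the in vivo embryos were the higher. The mean ratio was -0.20 ± 0.17 (SD, n = 4) on the slide with in vitro RNA in Cy5 and -0.37 ± 0.06 on the other, and the difference between slides did not pass its test (limma adjusted p = 0.0622). The call did not hold in every fit. With all 8 arrays, a dye term and the replicate number as a block, the adjusted p was 0.0663 for the same ratio. It was also lost without replicate 1 (-0.32, limma adjusted p = 0.0956), without replicate 3 (-0.24, 0.141) and without replicate 4 (-0.27, 0.162), and with in vitro RNA in Cy5 alone (-0.20, 0.149).

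ITGB3 and ITGB6 are the other beta subunits here that pair with ITGAV. ITGB3 had ratios of 0.07, 0.08, -0.08 and 0.03 in replicates 1 to 4, which lie on both sides of 0, with a mean of 0.03 ± 0.06 (confidence interval -0.12 to 0.18, limma adjusted p = 0.806). Its 8 arrays split by slide. With in vitro RNA in Cy5 the ratios were -0.13, -0.22, -0.38 and -0.22, and with in vivo RNA in Cy5 they were 0.28, 0.38, 0.22 and 0.29. The slides thus gave opposite directions in every replicate, and their difference of -0.53 ± 0.05 passed the test (limma adjusted p = 0.000143), as it did for 68.3% of all 24775 probes tested. The near-zero mean of ITGB3 is an average of these opposite readings. On the slide with in vivo RNA in Cy5 alone, ITGB3 was higher in vitro (0.29, limma adjusted p = 0.0240).

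ITGB6, the epithelial partner of ITGAV, had ratios of 0.02, 0.13, 0.10 and 0.09, all above 0. Its mean of 0.09 ± 0.05 did not pass the test (confidence interval -0.05 to 0.22, limma adjusted p = 0.332). The mean was 0.18 with in vitro RNA in Cy5 and -0.01 with in vivo RNA in Cy5 (limma adjusted p of the difference 0.0501). ITGAV itself was not tested; its ratios of -0.01, 0.02, 0.08 and 0.14 had a mean of 0.06 ± 0.06 (SD, n = 4), from readings that mostly did not exceed the detection limit.

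**Figure D2:**
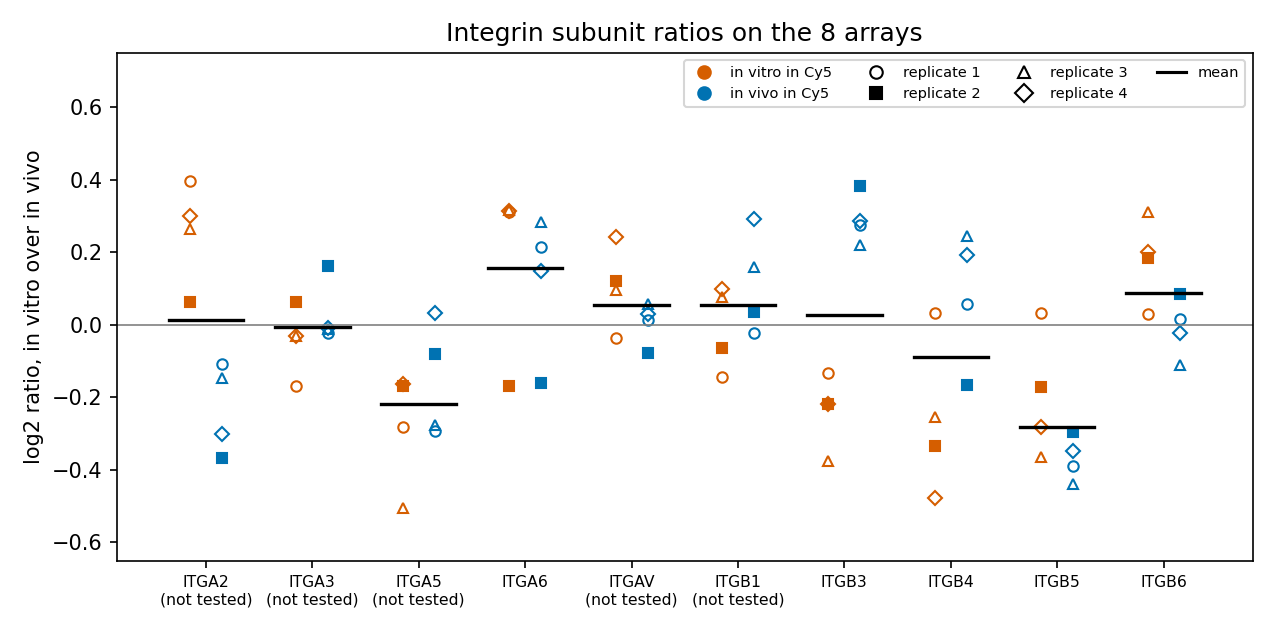
Log2 ratio of in vitro over in vivo for the 10 integrin subunits on each of the 8 arrays, coloured by dye orientation, with replicates 1 to 4 as symbols (replicate 2 filled) and the mean as a bar. ITGB5 lies below 0 on 7 of 8 arrays, while ITGA2 and ITGB3 fall on opposite sides of 0 in the 2 dye orientations.

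ITGA6 and ITGB4 form the laminin receptor of hemidesmosomes. ITGA6 had ratios of 0.26, -0.16, 0.30 and 0.23 in replicates 1 to 4. Replicate 2 alone was lower in vitro, on both of its arrays (-0.17 and -0.16), while the other 6 arrays lay between 0.15 and 0.32. The mean was 0.16 ± 0.10 (confidence interval -0.09 to 0.41, limma adjusted p = 0.332). Without replicate 2 it was 0.27 and passed the test (limma adjusted p = 0.0170). That fit leaves out the replicate that ran against the others. It also called 3689 genes over the array, against 2225 in the main fit. In log2 intensity the in vitro levels were 8.23, 7.56, 7.91 and 8.14 and the in vivo levels 7.97, 7.72, 7.61 and 7.91, so the groups overlapped. The slides gave 0.19 and 0.12 and their difference did not pass the test (limma adjusted p = 0.233).

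ITGB4 had ratios of 0.04, -0.25, -0.00 and -0.14, with a mean of -0.09 ± 0.07 (confidence interval -0.27 to 0.10, limma adjusted p = 0.469). The levels of the 2 kinds of embryo overlapped, at 6.82 to 7.06 in vitro and 6.96 to 7.22 in vivo. Its direction differed between slides, at -0.26 with in vitro RNA in Cy5 and 0.08 with in vivo RNA in Cy5 (limma adjusted p of the difference 0.0243). ITGA6 and ITGB4 had means of opposite sign, but neither mean passed the test, and the difference between the subunits was not tested.

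**Figure D3:**
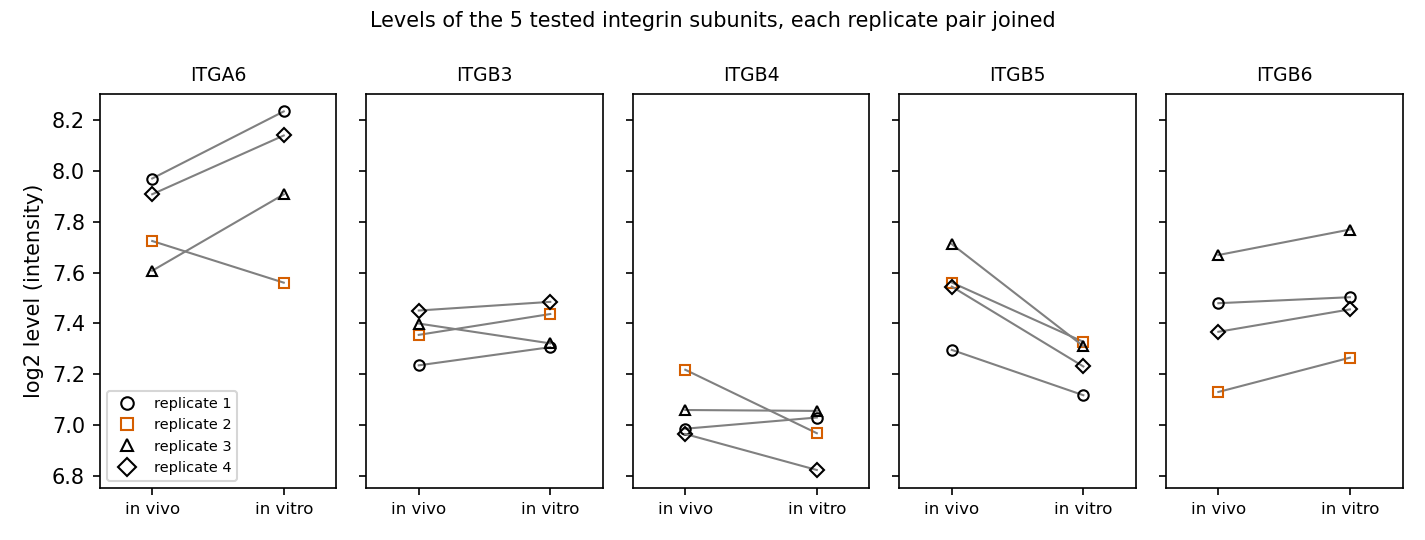
Log2 level (normalised intensity) of the 5 tested subunits in vivo and in vitro, with a line joining the 2 embryo kinds of each replicate and replicate 2 in orange. The ITGB5 lines all fall from in vivo to in vitro, and for ITGA6 the line of replicate 2 runs against the other 3.

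ITGB1 and its alpha partners ITGA2, ITGA3 and ITGA5 were described without a test. ITGB1 had ratios of -0.08, -0.01, 0.12 and 0.20, on both sides of 0, with a mean of 0.05 ± 0.13 (SD, n = 4). ITGA5, which with ITGB1 binds fibronectin, had ratios of -0.29, -0.12, -0.39 and -0.07, with a mean of -0.22 ± 0.15 (SD, n = 4). All 4 replicates and 7 of 8 arrays of ITGA5 were lower in vitro, a direction it shared with ITGB5. When every probe was tested regardless of detection, ITGA5 did not pass (limma adjusted p = 0.120). ITGA3 had ratios of -0.09, 0.11, -0.02 and -0.02 and showed no common direction. ITGA2 averaged 0.01 ± 0.12 (SD, n = 4), but its ratios were 0.40, 0.06, 0.27 and 0.30 with in vitro RNA in Cy5 and -0.11, -0.37, -0.15 and -0.30 with in vivo RNA in Cy5. As for ITGB3, each slide gave one direction for ITGA2, here the opposite one; the difference was not tested at these readings.

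Of the other integrin subunits, 15 were on the array, 5 were tested and 0 passed the test. As multiples of the detection limit, ITGA7 had median readings of 23.2 in vitro and 16.9 in vivo, ITGAE 25.8 and 15.4, and ITGA11 1.86 and 1.97. ITGA7, a laminin receptor subunit known from muscle, had ratios of 0.18, -0.69, 0.14 and 0.28, with replicate 2 again opposite to the others, and a mean of -0.02 ± 0.18 (limma adjusted p = 0.954). Without replicate 2 ITGA7 was at 0.20 (limma adjusted p = 0.0486), in the fit that also called the most genes over the array. ITGAE, which in lymphocytes binds E-cadherin, had ratios of 0.25, 1.18, 0.51 and 0.39. It was higher in vitro on all 8 arrays, and its mean of 0.58 ± 0.17 missed the threshold (limma adjusted p = 0.0695). With the replicate block the adjusted p of ITGAE was 0.0093 for the same ratio, without replicate 2 it was 0.0179 for 0.38, with median centring it was 0.0155 for 0.62, and with in vivo RNA in Cy5 alone it was 0.0208 for 0.79. ITGA10, a collagen receptor subunit, had ratios of -0.64, -0.01, -0.41 and -0.51, with replicate 2 near 0, and a mean of -0.39 ± 0.12 (limma adjusted p = 0.0762). In the same fits the adjusted p of ITGA10 was 0.0230 with the block, 0.0078 without replicate 2 (-0.52), 0.0204 with median centring (-0.47) and 0.0449 with in vivo RNA in Cy5 alone (-0.38). These were the only 4 of 14 alternatives in which ITGAE or ITGA10 passed. In the other 10 neither passed, with limma adjusted p up to 0.177 for ITGAE and 0.243 for ITGA10. ITGA11 (-0.18 ± 0.18) and ITGAD (-0.14 ± 0.05) did not pass (limma adjusted p = 0.555 and 0.139). With in vitro RNA in Cy5 alone ITGAD was lower in vitro (-0.31, limma adjusted p = 0.0191), and with in vivo RNA in Cy5 alone it was at 0.03. ITGB2, ITGB8 and ITGA4 were detected on no array. A difference between these and the 10 subunits was not tested.

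Among 29 tested integrin ligands, 4 rose and 2 fell, which is 20.7% against 21.8% over all genes, with a median ratio of -0.01. The ligands that rose were COL1A2, a fibrillar collagen chain (1.34 ± 0.19, 2.53-fold), the laminin chains LAMC1 (0.88 ± 0.20) and LAMA1 (0.85 ± 0.19), and SPP1, which encodes osteopontin, an RGD ligand of the ITGAV receptors. SPP1 entered the test through its in vitro readings only: it was detected on 8 arrays in vitro, at a median of 1.09 times the limit, and on 0 in vivo. Its mean log2 levels were 6.93 in vitro and 6.52 in vivo, a ratio of 0.40 ± 0.09 (1.32-fold, confidence interval 0.18 to 0.62 in log2, limma adjusted p = 0.0334). With no reading above the limit in vivo, the size of this difference is uncertain. A second SPP1 probe, detected on 1 array in vitro and 0 in vivo, was not tested. A second LAMC1 probe, less bright, read -0.39 ± 0.12 and did not pass (limma adjusted p over probes 0.0962), so the LAMC1 probes disagreed in direction. AGRN, a basement membrane proteoglycan, fell with ratios of -1.33, -1.05, -1.66 and -1.38, a mean of -1.36 ± 0.11 and a level 2.56-fold higher in vivo (limma adjusted p = 0.00502). VWF was the other that fell (-0.26 ± 0.06, limma adjusted p = 0.0476); detected on 7 arrays in vitro and 8 in vivo, it entered the test through its in vivo readings only. It was also among the fibroblast and endothelial markers, of which 1 of 3 tested fell and whose summed log2 level was 9.998 to 10.33 in vitro and 10.07 to 10.28 in vivo. Whether those cells had a part in it was not tested. The number of ligands called was 1, 11, 2 and 2 without replicates 1, 2, 3 and 4 in turn. It was 11 with the replicate block. Calls over the whole array moved too, from 2225 to between 639 and 3689 with a replicate left out, most without replicate 2. The replicate block also called more genes over the array than the main fit.

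Of other ligands of ITGAV receptors, VTN, vitronectin, gave -0.01 ± 0.07 and did not pass the test (limma adjusted p = 0.961). A second VTN probe, detected on 6 arrays in each kind, was not tested. MFGE8, lactadherin, detected on 7 arrays in vitro and 8 in vivo, gave 0.01 ± 0.05 (limma adjusted p = 0.928). Both read close to the detection limit, where a small difference could be missed. Median multiples of the limit, in vitro first, were 1.29 and 1.32 for the tested VTN probe and 1.09 and 1.12 for MFGE8. CYR61, now named CCN1, gave -0.52 ± 0.19 with ratios of -0.40, -0.74, 0.09 and -1.04 (limma adjusted p = 0.125), replicate 3 being the exception in direction.

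Among 25 tested talin, kindlin and adaptor genes, 3 rose and 3 fell (24.0%, against 21.8% over all genes), with a median of -0.09. Both talins, which bind beta subunit tails and activate integrins, fell. TLN2 gave -0.68, -0.29, -0.58 and -0.58, a mean of -0.53 ± 0.08 (limma adjusted p = 0.0147), and was lower on all 8 arrays. TLN1 gave -0.45 ± 0.06 (limma adjusted p = 0.00999), but the slide means were -1.27 and 0.36 and their difference passed its test (limma adjusted p = 3.06e-05). With in vivo RNA in Cy5 alone TLN1 was higher in vitro (limma adjusted p = 0.0292), so its direction depended on the slide. The kindlins FERMT1 (-0.28 ± 0.09) and FERMT2 (0.19 ± 0.10) did not pass (limma adjusted p = 0.103 and 0.269). FERMT2 had 4 tested probes; its brightest gave this value, and another gave -0.60 ± 0.07 (limma adjusted p over probes 0.0101). ENAH (1.16 ± 0.18, 2.23-fold) rose and its relative VASP (-0.73 ± 0.11) fell, both regulators of actin filament growth. ITGB1BP1, which binds the ITGB1 tail and opposes talin, rose in all 4 replicates (0.51 ± 0.07, limma adjusted p = 0.00931). Of this list 0, 7, 1 and 2 genes were called without replicates 1, 2, 3 and 4 in turn. Calls over the whole array moved between 639 and 3689 in the same fits, most without replicate 2.

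Of 32 tested focal adhesion signalling genes, 4 rose and 6 fell (31.2%, against 21.8% over all genes), with a median of -0.05. Of those that fell, CSK and CAPN2 had slide means of opposite sign. With in vitro RNA in Cy5 first, these were -1.75 and 0.87 for CSK and -0.88 and 0.28 for CAPN2. The others that fell had negative means on both slides. PTK2, the focal adhesion kinase activated downstream of integrins, had ratios of -0.39, -0.59, -0.53 and -0.66. PTK2 was lower in vitro on all 8 arrays, with a mean of -0.54 ± 0.07 and a level 1.46-fold higher in vivo (limma adjusted p = 0.00859). PTPN12, a phosphatase of focal adhesion proteins, rose by its brightest probe (0.57 ± 0.07, limma adjusted p = 0.00896), while a second probe gave -0.09 ± 0.06. PTPN11, the phosphatase SHP2, gave 0.63 ± 0.15 (limma adjusted p = 0.0446) and 0.08 ± 0.05 from a second probe. ARHGAP5 fell by its brightest probe (-0.60 ± 0.12), and 2 others gave 0.01 ± 0.06 and -0.10 ± 0.34. PAK1, a kinase downstream of Rac, gave -1.01 ± 0.14, but the slide means were -2.00 and -0.02, and its other probes gave -0.13 ± 0.12 and 0.15 ± 0.07. With all tested probes of a gene averaged, LAMC1 (0.25), PAK1 (-0.33), PTPN11 (0.35) and ARHGAP5 (-0.23) did not pass. Of the signalling list 1, 17, 4 and 0 genes were called without replicates 1, 2, 3 and 4 in turn. With the replicate block 16 were called. Calls over the whole array moved between 639 and 3689 with a replicate left out, most without replicate 2, and rose with the block.

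In the hemidesmosome list, 2 of 4 tested genes fell (50%, against 12.6% lower over all genes). They were CD151, a tetraspanin partner of laminin-binding integrins (-0.40 ± 0.08, limma adjusted p = 0.0297), and KRT14, a keratin of basal epithelia (-0.31 ± 0.06, limma adjusted p = 0.0270). KRT14 was detected on 5 arrays in vitro and 8 in vivo and entered the test through its in vivo readings only. CD151 had a mean of -0.62 with in vitro RNA in Cy5 and -0.17 with in vivo RNA in Cy5, and was not called on the latter alone (limma adjusted p = 0.218). Of 15 tetraspanins and other lateral partners, 1 rose and 4 fell (33.3%, against 21.8% over all genes), with a median of -0.05. CD151 is counted in both of these lists. SDC1, a syndecan that acts with integrins on matrix (-1.16 ± 0.11), BSG, basigin (-1.02 ± 0.17), and the tetraspanins CD63 (-0.96 ± 0.15) and CD151 fell. CD47, named integrin-associated protein for its binding to ITGB3 receptors, rose in all 4 replicates by its brightest probe (0.60, 1.20, 1.37 and 1.17, mean 1.08 ± 0.14, 2.12-fold). Its slide means were 1.41 with in vitro RNA in Cy5 and 0.75 with in vivo RNA in Cy5. A second CD47 probe gave 0.81 ± 0.22 and did not pass (limma adjusted p over probes 0.0759). Of 20 tested genes of integrin trafficking and maturation, 1 rose and 2 fell (15%, against the same 21.8%), with a median of 0.00. A difference of any list from the share over all genes was not tested. HSP90B1, the endoplasmic reticulum chaperone that folds most integrins, fell (-1.46 ± 0.24, 2.75-fold higher in vivo), and so did CALR, calreticulin (-1.17 ± 0.08, 2.25-fold higher in vivo). ASAP1, an Arf regulator at focal adhesions, rose (0.45 ± 0.08, limma adjusted p = 0.0172). Without replicates 1, 2, 3 and 4 in turn, the hemidesmosome genes called numbered 0, 2, 0 and 0. Lateral partners gave 3, 7, 2 and 1 in the same order. Trafficking gave 4, 6, 1 and 1, and 8 with the replicate block. Calls over the whole array moved between 639 and 3689 with a replicate left out, most without replicate 2, and rose with the block.

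**Figure D4:**
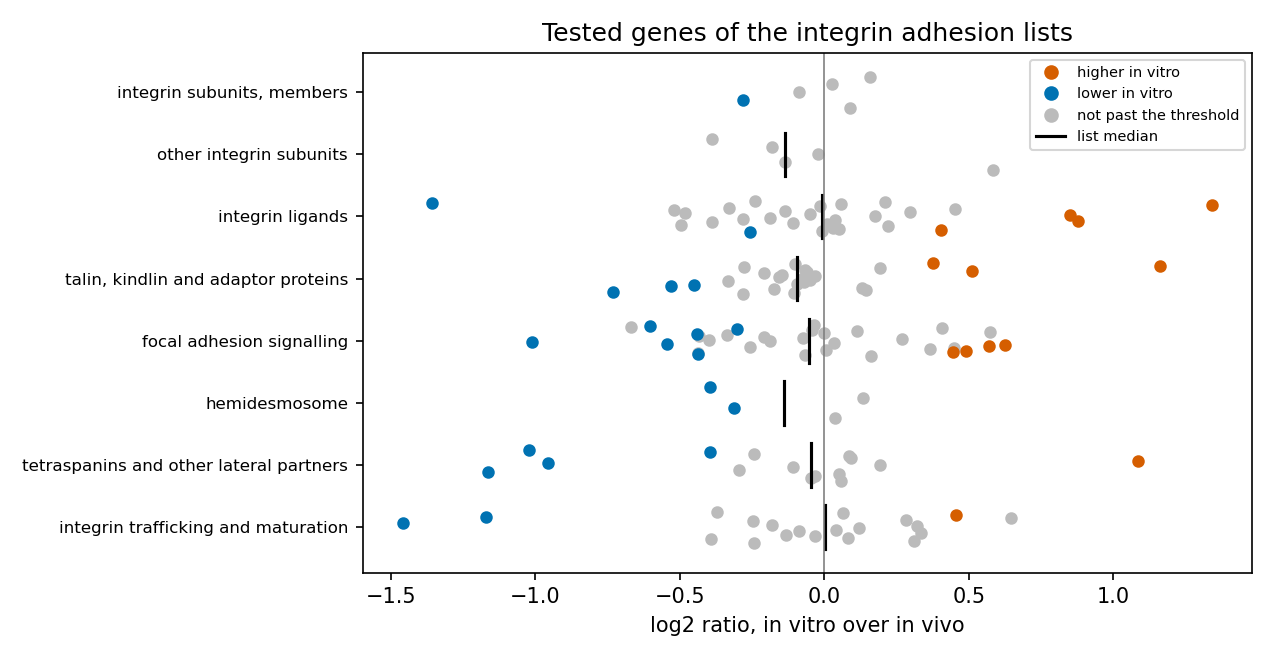
Log2 ratio of in vitro over in vivo for each tested gene of the integrin lists, 1 row per list, with genes past the threshold in orange (higher in vitro) or blue (lower in vitro), the others in grey, and the median of each partner list as a bar. The integrin subunits lie between -0.28 and 0.16, while the partner lists reach from -1.46 to 1.34. The subunits read close to the detection limit, unlike many of the partner genes, and a difference between these ranges was not tested.

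Markers of cell types that carry integrins moved beside these values. Over all genes 9.23% were higher and 12.6% lower in vitro. Of 11 tested trophectoderm markers, 1 rose (TFAP2C, 0.67 ± 0.10) and 4 fell, among them KRT18 (-1.46 ± 0.27) and GATA2 (-1.08 ± 0.09). The summed log2 level of the trophectoderm markers was 15.5 to 16.4 in vitro and 16.5 to 16.7 in vivo, without overlap. This was not particular to trophectoderm. Inner cell mass (12.2 to 12.9 and 13.5 to 14.2) and primitive endoderm (13.9 to 14.3 and 14.6 to 15.3) did not overlap either. Nor did cumulus and granulosa (11.4 to 11.6 and 12.1 to 12.7) or sperm (9.28 to 9.51 and 9.75 to 10.2). The sums for leucocytes and platelets, red blood cells, endometrium and oviduct, and fibroblasts and endothelium overlapped. Such a sum follows the brightest probes. KRT8, at 14.2 in vitro and 15.2 in vivo, was not called (-1.01 ± 0.27, limma adjusted p = 0.0567). Its slide means were -0.13 and -1.89. Among inner cell mass markers 2 of 5 fell and among primitive endoderm markers 2 of 4 fell, with none higher. Of markers of cells outside the embryo, 0 of 5 tested for leucocytes and platelets and 0 of 4 for red blood cells passed the test. For endometrium and oviduct 1 of 3 fell. This was MUC1, detected on 7 arrays in vitro and 8 in vivo, which entered the test through its in vivo readings only. For cumulus and granulosa 1 of 6 fell, and for sperm the 1 tested marker, TNP1 (-1.63 ± 0.14). The part of these differences in the ratios of ITGB5 and the partner genes was not tested.

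The 2 genes whose ratios over the 8 arrays lay nearest to those of ITGB5 were MOCOS, a molybdenum cofactor sulfurase, and DOCK6, a guanine nucleotide exchange factor for Rac and Cdc42. They differed from ITGB5 by a root mean square of 0.083 and 0.098 on the log2 scale per array. MOCOS fell (-0.31 ± 0.06, limma adjusted p = 0.0287), and DOCK6 gave -0.21 ± 0.06 (limma adjusted p = 0.0628). Both were picked for their nearness to ITGB5, so similar means and p-values follow from that choice and are no separate result.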

How the data were processed

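The authors deposited a scanner table per array, per the file headers with the mean intensity and the median background intensity of each spot in Cy3 and Cy5, not background corrected, and a table of log2 ratios with normalization and direction not given in the sources used here. Set against the scanner intensities over 10680 bright probes, those deposited log2 ratios correlated at 0.946 to 0.982 with Cy5 over Cy3 when in vitro RNA was in Cy5 and at -0.995 to -0.977 when it was in Cy3, so they read in vitro over in vivo; their medians lay between -0.004 and 0.001 and their method of centring stays unknown. RNA was extracted with PicoPure, amplified with RiboAmp HS Plus and labelled by ULS, per the labels' protocols.

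From the intensities, limma 3.58.1 (R 4.3.3) corrected background by normexp with an offset of 50 and normalized each array by loess, with the 1425 control spots at weight 0. Every ratio was turned so that in vitro stands over in vivo, and the 2 arrays of a replicate were averaged, since they hold the same RNA pair; per-channel levels used Aquantile scaling. Arrays of the same replicate number deviated together (r of 0.703 to 0.894 between them, against at most 0.149 with another number). Tests were two-sided lmFit and eBayes fits on 4 replicates, with Benjamini-Hochberg adjustment over 10188 genes, each by its brightest tested probe, or over 24775 probes. The slide difference was tested on the 4 within-replicate differences. With 4 pairs the smallest exact two-sided sign test p is 0.125. The fit was tested on simulated data. Symbols came from the platform annotation, in which 21790 probes have 1 symbol and 22005 have none here. Outside the 10 subunits, the named genes are all called genes of a list with up to 5, otherwise the 4 with the largest ratios. Partners and ligands named by role and the genes nearest to ITGB5 on the 8 arrays were added. VWF, CSK, CAPN2 and the markers named were chosen after their values were seen. The members and lists were chosen with earlier results of these data known. Alternatives changed the background correction, normalization, filter, slide, replicates, block, probe summary and source of the ratios. Figures were drawn with matplotlib 3.10.9. Sequences and coordinates were not used here.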

Additional observations from a re-analysis of the deposited data

Results flagged for a closer look

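In 3 of the 46 genes examined, 1 of the 4 replicates lay far from the rest, and chance alone gives about 1 in 20 groups. It was replicate 2 each time: ITGA6 at -0.164 against 0.23 to 0.30 in the others, ITGA7 at -0.688 against 0.14 to 0.28, and VASP at -0.372 against -0.87 to -0.83. Over all probes replicate 2 was also the one least like the others, and its part in these values was not tested beyond the fits without it.

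The ratio differed between the dye orientations, which are also the slides, for many genes, as it did for 68.3% of all probes tested. Differences are those of log2 ratios, in vitro RNA in Cy5 minus in vivo RNA in Cy5. Among the 10 subunits they were -0.528 for ITGB3 and -0.341 for ITGB4 by limma, and 0.486 for ITGA2, which was not tested and was listed because every array of one slide was above 0 and every array of the other below. Among other integrin subunits they were -0.623 for ITGA11, 0.461 for ITGA7, -0.338 for ITGAD and -0.409 for ITGAE. PAK1 gave -1.98 and TLN1 -1.63. Ligands gave -0.673 for LAMA1, -0.335 for LAMC1, 0.353 for CYR61, 0.163 for SPP1 and -0.142 for COL1A2. Adaptors and signalling genes gave 0.749 for ARHGAP5, 0.367 for ITGB1BP1, 0.354 for PTPN12, 0.324 for VASP, 0.213 for PTK2 and -0.153 for FERMT2. Lateral partners and chaperones gave 0.659 for CD47, 0.612 for HSP90B1, -0.584 for CALR, -0.451 for CD151, -0.408 for BSG, 0.375 for SDC1 and 0.327 for CD63. DOCK6, near ITGB5 in pattern, gave 0.177. A dye effect and a slide effect cannot be told apart here.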

How the results depend on the processing

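The fall of ITGB5 kept its direction in all 14 alternatives run, with ratios of -0.37 to -0.20, and its call in 9 of them (limma adjusted p 0.0124 to 0.162); the cause of the losses was not tested. The number of subunits lower in vitro was 0 with the replicate block and 0 with in vitro RNA in Cy5 alone, and 0 to 1 when a replicate was left out. The number higher was 1 with in vivo RNA in Cy5 alone (ITGB3) and 0 to 1 when a replicate was left out (ITGA6, without replicate 2). Genes called over the array numbered 3372 with in vitro RNA in Cy5 alone, 3119 with the replicate block, and 639 to 3689 when a replicate was left out, most without replicate 2.

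Directions turned for values near 0 or that differ between slides. With in vitro RNA in Cy5 alone these were ITGB3 (-0.24), VTN (0.00459), MFGE8 (-0.027) and ITGA7 (0.21). With in vivo RNA in Cy5 alone they were ITGB4 (0.0827), ITGB6 (-0.00803), TLN1 (0.36), ITGA11 (0.13) and ITGAD (0.0328). With median centring they were ITGB3 (-0.017) and ITGA7 (0.026), without background correction VTN (0.00329), and with probes averaged FERMT2 (-0.16). Leaving out 1 replicate gave ranges of -0.067 to 0.026 for VTN, -0.00199 to 0.0168 for MFGE8, -0.12 to 0.20 for ITGA7 and -0.33 to 0.024 for ITGA11. ITGB4, MFGE8 and the called SPP1, KRT14, VWF and MUC1 are not in the fit that required all 16 readings. Signal over background limits these values: with a smaller offset of 10, ITGB5 moved from -0.28 to -0.37.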
